A study of Mus musculus with 4 samples.

Results

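The windows described here are the stretches of the mouse genome that kept at most 0.25 of the control level of RNA polymerase II (Pol II) in embryonic stem cells with a hairpin against Spt5. The genome was divided into windows of 1 kb on chromosomes 1 to 19. A window was taken when it held 30 or more control tags, a tag being 1 sequenced position per strand, and when its level in shSpt5, in tags per 1000000 kept tags (RPM), was 0.25 or less of that in shControl. The rule found 548 windows among 7705 with 30 or more control tags, which is 7.11% of them, and among 1976611 windows with any tag. The number depends on the scaling: with libraries scaled to a median window ratio of 1 it was 112, since shSpt5 was below shControl in most windows, at a median of log2 -0.83 over all 7705. The shSpt5 and shControl libraries chose the windows, so their own contrast is given as a description.

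All 4 libraries came from V6.5 (C57BL/6-129) murine embryonic stem cells and measured total Pol II by chromatin immunoprecipitation and sequencing, using an antibody raised to the Rpb1 N-terminus, Rpb1 being the largest subunit. The cells carried a hairpin against Spt5 (shSpt5), Spt4 (shSpt4) or NelfE (shNelfE), or a control hairpin (shControl), for about 4 days, and every culture, the control included, received 1 µM flavopiridol for 1 h before crosslinking. Knockdown cultures went through 2 feeder-free passages, against 1 for control cultures, and the knockdown libraries shared a flow cell that the control library did not. Each group held 1 library, so no comparison has a replicate check, and hairpin, flow cell and passage cannot be told apart in any ratio to shControl. Knockdown itself was not measured in these files. Kept tags ran from 2646944 to 3170090 per library, and reads that repeated a position made up 8.13% to 17.7%, the most in shSpt5. Intervals given below are exact 95% binomial intervals that cover counting error alone.

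Spt5 and Spt4 form DSIF, a complex that binds Pol II shortly after initiation. Spt5 lies across the cleft of the polymerase, and Spt4 binds Spt5. NELF, of which NelfE is a subunit, binds Pol II together with DSIF and holds it paused near promoters. The kinase Cdk9 releases paused Pol II by phosphorylating both complexes and the polymerase, and flavopiridol inhibits it. DSIF stays with Pol II during elongation, whereas NELF leaves. An antibody to total Rpb1 reads how much Pol II is on the DNA, whichever of these states it is in. The files hold positions on the mouse build mm8, for which no annotation was used here, so windows are named by position and not by gene.

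In the 548 windows the median was 2.57 RPM in shSpt5, 7.56 in shSpt4, 8.68 in shNelfE and 13.2 in shControl. The interquartile range was 1.93 to 3.53 RPM in shSpt5, 5.29 to 10.6 in shSpt4, 6.13 to 12.3 in shNelfE and 10.7 to 17.7 in shControl. The shSpt5 values follow from the rule. Those of shSpt4 and shNelfE lay between shSpt5 and shControl, a position that choosing low shSpt5 and high shControl counts favours by itself. In the other 7157 windows the medians were 10.6 RPM in shSpt5, 14.4 in shSpt4, 12.9 in shNelfE and 17.0 in shControl. The 2 groups of windows thus differed in the order of the knockdowns: shSpt4 lay below shNelfE in the windows that lost Pol II in shSpt5 and above it elsewhere.

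**Figure D1:**
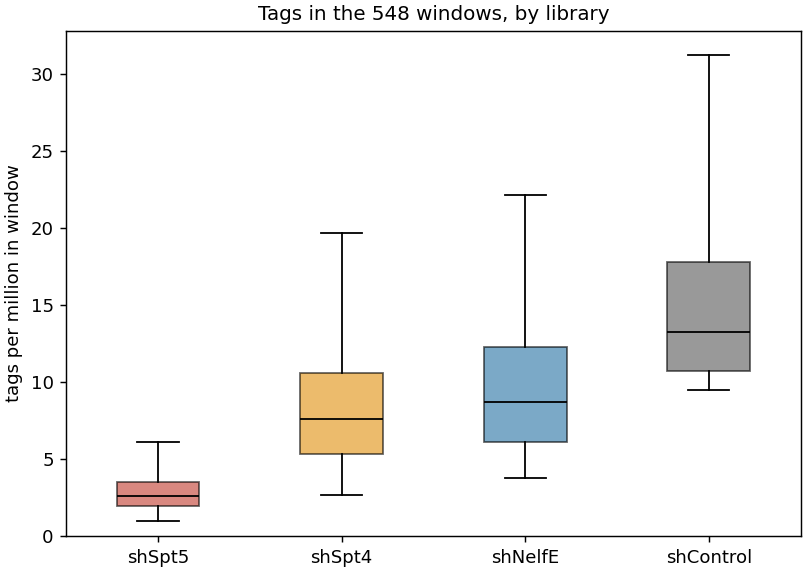
RPM in the 548 windows (y axis) for each library (x axis). Boxes span the interquartile range with the median as a line, and whiskers run from the 5th to the 95th percentile; the median is 2.57 in shSpt5, 7.56 in shSpt4, 8.68 in shNelfE and 13.2 in shControl.

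The remaining Pol II in shSpt5 was small and in most windows still above its surroundings. The median window held 8 tags in shSpt5, against 42 in shControl, and none of the 548 could be higher in shSpt5, where 0.143% of all windows with 30 or more control tags passed the call for higher given further on. Only 2 windows had no shSpt5 tag, and 38 had 1 to 3. The ratio was 0.125 or less in 79 windows, and its interval lay wholly below 0.5 in 491 and wholly below 0.25 in 51. Taken 5 to 10 kb away on both sides, the local density in shSpt5 was 1.04 RPM per kb, and the windows averaged 2.94, or 2.82 times as much. The same windows stood 6.94 times above the local density in shSpt4, 7.07 times in shNelfE and 9.28 times in shControl. The other windows stood 12.2 times above it in shSpt5, 15.4 in shSpt4, 13.4 in shNelfE and 15.9 in shControl. Tags in shSpt5 were at or below the local density in 54 of the 548 windows (9.85%). The share was 1.43% over all windows with 30 or more control tags and 0.782% in the other windows. The rule takes windows with few shSpt5 tags, so this share and the small excess over local density in shSpt5 describe the choice.

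**Figure D2:**
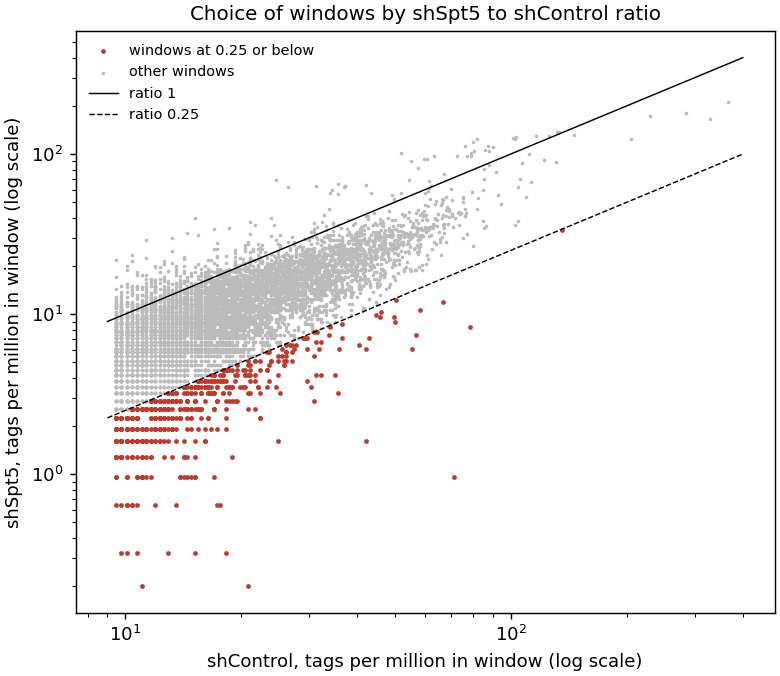
RPM in each window with 30 or more control tags, shSpt5 (y axis, log scale) against shControl (x axis, log scale). The 548 windows at or below a ratio of 0.25 (dashed line) are red and the other 7157 are grey; the 2 windows with no shSpt5 tag are drawn at 0.2.

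The limit of the rule cut through a continuous range of ratios. Just inside it lay chromosome 6, 52643000 to 52643999, and chromosome 8, 72831000 to 72831999, both with 14 tags in shSpt5 and 57 in shControl and a ratio of 0.25 when rounded, followed by chromosome 3, 104909000 to 104909999, with 13 and 53 tags. Just outside lay chromosome 19, 5637000 to 5637999, with 17 tags in shSpt5 and 69 in shControl (ratio 0.251), chromosome 8, 123103000 to 123103999, with 22 and 89 (0.251), and chromosome 7, 28990000 to 28990999, with 24 and 97 (0.252). The intervals of these 6 windows overlap, the first running from 0.129 to 0.454 and the last from 0.154 to 0.397. At the control minimum of 30 tags there were 30 windows, among them chromosome 1, 52176000 to 52176999, chromosome 1, 60125000 to 60125999, and chromosome 1, 88535000 to 88535999, with 3, 4 and 5 tags in shSpt5.

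Choosing windows by a low ratio favours windows where chance lowered the shSpt5 count or raised the shControl count. The 2 strands of a library give separate tags, so windows were also chosen on one strand, with 15 or more control tags there, and measured on the other. Chosen on plus-strand tags, 779 windows had a median shSpt5 to shControl ratio of 0.308 on the minus strand. Chosen on minus-strand tags, 752 windows had 0.299 on the plus strand. On the tags that chose them, the 548 windows had a median of log2 -2.32 with a lowest value of -7.03 and a highest of -1.95. The ratio measured on unused tags was thus higher, and 307 of 779 and 306 of 752 windows were again at or below 0.25. On the log2 scale these medians were -1.70 and -1.74, against -0.73 and -0.75 in the windows not chosen. Both strands come from the same 2 libraries, so this addresses counting error and not the differences between the libraries.

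Of the windows with most control tags, the largest showed a loss in shSpt5 alone. Chromosome 4, 132156000 to 132156999, had 105 tags in shSpt5, 323 in shSpt4, 362 in shNelfE and 430 in shControl. Its ratio to the control was 0.248 (0.199 to 0.308) in shSpt5, 0.900 (0.776 to 1.04) in shSpt4 and 0.908 (0.788 to 1.05) in shNelfE, so that the intervals of shSpt4 and shNelfE included 1 and that of shSpt5 did not. Chromosome 9, 64973000 to 64973999, held 26 tags in shSpt5, 225 in shSpt4, 148 in shNelfE and 248 in shControl. Here shSpt4 was at the control level, at 1.09 (0.903 to 1.31), and shNelfE was below it, at 0.644 (0.522 to 0.792). Pol II at this window thus differed between the knockdown libraries of the 2 DSIF subunits, with 8.34 RPM in shSpt5 and 85.0 in shSpt4. The rule selects the low shSpt5 value.

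The third window in this order was lower in every knockdown library. Chromosome 13, 44913000 to 44913999, had 3 tags in shSpt5, 52 in shSpt4, 101 in shNelfE and 226 in shControl. The ratio was 0.0135 (0.00276 to 0.0400) in shSpt5, 0.276 (0.20 to 0.374) in shSpt4 and 0.482 (0.378 to 0.612) in shNelfE. No 2 of these intervals overlap. Chromosome 7, 144670000 to 144670999, had 37 tags in shSpt5, 50 in shSpt4, 130 in shNelfE and 212 in shControl. At that window shSpt4 (0.282, 0.203 to 0.386) stood closer to shSpt5 (0.178, 0.122 to 0.253) than to shNelfE (0.662, 0.528 to 0.827).

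In the other windows among the 10 with most control tags, shSpt4 lay between 0.531 and 0.686 of the control and shNelfE between 0.405 and 1.13. Chromosome 5, 113747000 to 113747999, had 33 tags in shSpt5, 106 in shSpt4, 102 in shNelfE and 185 in shControl. Chromosome 1, 91762000 to 91762999, had 19, 100, 79 and 176 in the same libraries, and chromosome 11, 20149000 to 20149999, had 38, 77, 60 and 160. In the last 2, shNelfE was the lower of the 2 other knockdowns, with ratios to the control of 0.484 (0.367 to 0.635) and 0.405 (0.296 to 0.548), and it passed the call described further on while shSpt4 did not. Chromosome 9, 21474000 to 21474999, had 30 tags in shSpt5, 70 in shSpt4, 104 in shNelfE and 158 in shControl.

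A pair of windows on chromosome 8 lay 7 kb apart. The window from 97061000 to 97061999 had 23 tags in shSpt5, 83 in shSpt4, 110 in shNelfE and 180 in shControl. The window from 97068000 to 97068999 had 28, 91, 167 and 159 tags in those libraries. Their shSpt5 ratios were alike, at 0.130 (0.0803 to 0.201) and 0.179 (0.115 to 0.269). In shNelfE the first was at 0.659 (0.515 to 0.841) and the second at 1.13 (0.907 to 1.42), and these intervals do not overlap.

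The lowest shSpt5 ratios were found where Pol II persisted to differing degrees in the other knockdowns. Chromosome 3, 41710000 to 41710999, had no tag in shSpt5, 37 in shSpt4, 30 in shNelfE and 66 in shControl. Set against a floor of 3 tags in the library, which stands for 0.963 RPM, shSpt5 was at least 21.6-fold lower than shControl with the control count taken as exact. The interval that also covers the error of the control count ended at a ratio of 0.0585. The ratio in shSpt4 was 0.671 (0.436 to 1.02) and in shNelfE 0.490 (0.307 to 0.766). Chromosome 2, 28031000 to 28031999, had no tag in shSpt5, 5 in shSpt4, 16 in shNelfE and 35 in shControl, so that shSpt5 was at least 11.5-fold lower by the same floor, with an interval that ended at a ratio of 0.113. In contrast to the first window, shSpt4 was far below the control here, at 0.171 (0.0523 to 0.439).

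A single shSpt5 tag was left in 6 of the 10 windows with the lowest ratios. Chromosome 5, 53946000 to 53946999, had 1 tag in shSpt5, 37 in shSpt4, 48 in shNelfE and 48 in shControl. Neither shSpt4 (0.923, 0.585 to 1.45) nor shNelfE (1.08, 0.708 to 1.64) differed from the control beyond counting error there, while shSpt5 was at 0.0212 (0.000526 to 0.124). The same held at chromosome 6, 113249000 to 113249999, with 1, 28, 31 and 41 tags in shSpt5, shSpt4, shNelfE and shControl, and at chromosome 13, 55323000 to 55323999, with 1, 24, 28 and 34. Chromosome 1, 183758000 to 183758999, differed from these: it had 1 tag in shSpt5, 11 in shSpt4, 45 in shNelfE and 58 in shControl, and shSpt4 was at 0.227 (0.107 to 0.437). Chromosome 3, 88693000 to 88693999, held 1, 11, 10 and 32 tags, with both shSpt4 and shNelfE below 0.5. The others were chromosome 13, 44907000 to 44907999, with 1, 13, 20 and 31 tags, and chromosome 8, 125780000 to 125780999, with 2, 32, 38 and 56.

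Across the 548 windows both other knockdowns were below the control in most windows. A window was called lower when the ratio was 0.5 or less and its interval excluded 1, and higher when the ratio was 2 or more and its interval excluded 1. In shSpt4, 237 windows (43.2%) were called lower than in shControl, against 12.4% of all windows with 30 or more control tags, and none was called higher, against 0.221%. In shNelfE, 151 windows (27.6%) were called lower, against 9.50% of all, and none higher, against 0.0649%. The median log2 ratio to shControl was -0.89 in shSpt4 and -0.69 in shNelfE. In the other windows it was -0.33 and -0.46. The rule favours high control counts, which by itself lowers every ratio to shControl, so these 2 sets of values do not stand apart from the choice of windows.

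Relative to the median over all windows with 30 or more control tags, which was log2 -0.36 in shSpt4 and -0.48 in shNelfE, the 548 windows lay lower by 0.54 and by 0.21. In the windows chosen on 1 strand and measured on the other, the medians were log2 -0.68 and -0.70 in shSpt4, against -0.28 and -0.30 in the windows not chosen. In shNelfE they were -0.56 and -0.51, against -0.42 and -0.42. The gap between chosen and other windows was thus wider in shSpt4 than in shNelfE on both strands.

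The extremes of both libraries show the range among the windows. By the mean of their shSpt4 and shNelfE ratios, the highest was chromosome 9, 114358000 to 114358999, with 13 tags in shSpt5, 59 in shSpt4, 91 in shNelfE and 61 in shControl. Its neighbour, 114357000 to 114357999, had 7, 45, 62 and 50 tags. In these adjacent windows shNelfE was at 1.61 (1.15 to 2.26) and 1.34 (0.907 to 1.98) of the control, the second within counting error of it, and shSpt5 was at 0.217 (0.109 to 0.399) and 0.142 (0.0545 to 0.316). A like pair lay on chromosome 2, where 153091000 to 153091999 had 10 tags in shSpt5, 58 in shSpt4, 51 in shNelfE and 50 in shControl, and 153092000 to 153092999 had 12, 54, 49 and 51. Chromosome 8, 124837000 to 124837999, had 7, 31, 32 and 31 tags. In the other 4 windows, the intervals of shSpt4 and shNelfE against the control included 1.

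At the other end, Pol II was low in every knockdown library. Chromosome 12, 77392000 to 77392999, had 5 tags in shSpt5, 2 in shSpt4, 3 in shNelfE and 31 in shControl. Chromosome 8, 114742000 to 114742999, had 7, 1, 5 and 34 tags, and chromosome 3, 41594000 to 41594999, had 4, 4, 5 and 30. These windows, and chromosome 18, 61753000 to 61753999, with 8, 5, 8 and 39 tags, and chromosome 17, 46310000 to 46310999, with 5, 7, 8 and 38, were rich in tags in the control library alone. With 1 control library, a high count in it cannot be told apart from a loss in all 3 others.

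The comparison of shNelfE with shSpt4 used neither of the libraries that chose the windows, and both shared a flow cell and a passage number. Scaled to total tags, shNelfE was above shSpt4 in 349 of the 548 windows (63.7%) and in 2661 of the 7157 others (37.2%). The median log2 ratio of shNelfE to shSpt4 was 0.21 in the 548 windows, with an interquartile range from -0.22 to 0.66, and -0.15 in the others, with an interquartile range from -0.40 to 0.16. Summed over the windows, 16815 shNelfE tags stood against 13208 shSpt4 tags, a ratio of 1.15 (1.12 to 1.17). In the others 338414 stood against 337636, a ratio of 0.903 (0.899 to 0.907). Calls followed the same direction: 53 of the 548 windows (9.67%) were called higher in shNelfE than in shSpt4, against 2.62% of all windows, and 10 (1.82%) were called lower, against 2.44%.

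The ratio of shNelfE to shSpt4 was ordered by the shSpt5 to shControl ratio, although the 2 ratios share no library. From the lowest to the highest class of shSpt5 to shControl, the median log2 ratio of shNelfE to shSpt4 was 0.24 up to 0.125, 0.20 from there to 0.25, -0.040 to 0.5, -0.15 to 0.75, -0.22 to 1 and -0.22 above 1. The share of windows with shNelfE above shSpt4 was 63.3%, 63.8%, 47.1%, 33.8%, 28.9% and 26.6% in these classes. The 2 lowest classes, which together are the 548 windows, were close to each other and above 0, and the 4 other classes were below 0.

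**Figure D3:**
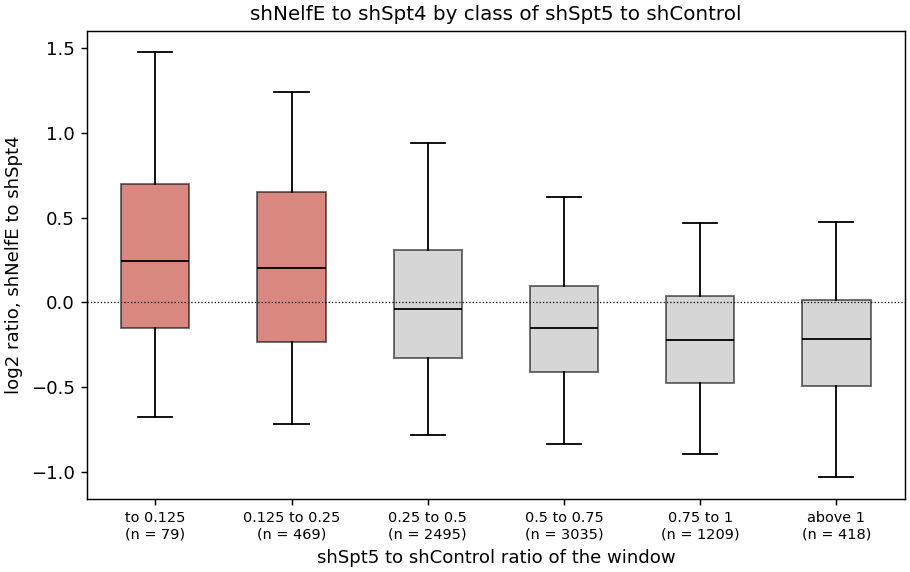
Log2 ratio of shNelfE to shSpt4 (y axis) in windows grouped by their shSpt5 to shControl ratio (x axis, low to high, with the number of windows). Boxes span the interquartile range with the median as a line and whiskers run from the 5th to the 95th percentile; the 548 windows are red, with medians of 0.24 and 0.20, and the other classes grey, with medians from -0.040 to -0.22.

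The 548 windows had the higher median at every depth and on every chromosome. Among windows with 30 to 39, 40 to 59, 60 to 99 and 100 or more control tags, the median log2 ratio of shNelfE to shSpt4 was 0.21, 0.26, 0.13 and 0.17 in the windows that lost Pol II in shSpt5, and -0.078, -0.15, -0.17 and -0.18 in the others. The last class held 28 of the 548 windows. The median was higher in the 548 windows than in the others on 19 of 19 chromosomes, by the least on chromosome 16, with -0.053 against -0.090, and it was below 0 in the 548 windows on chromosomes 6 and 16. Measured on the strand that did not choose them, the medians were 0.091 and 0.16, against -0.15 and -0.15 in the windows not chosen.

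Single windows reached several-fold differences between shNelfE and shSpt4 in either direction. A total of 527 windows held 20 or more tags in these 2 libraries together. Among them the highest ratio of shNelfE to shSpt4 was 5.71 (1.68 to 30.1), at chromosome 12, 87402000 to 87402999. That window had 4 tags in shSpt5, 3 in shSpt4, 19 in shNelfE and 30 in shControl. Chromosome 11, 51490000 to 51490999, rested on more tags, with 14 in shSpt5, 12 in shSpt4, 57 in shNelfE and 65 in shControl, and a ratio of 4.28 (2.27 to 8.76). At this window shSpt5 and shSpt4 had nearly the same level, at 4.49 and 4.53 RPM, and shNelfE and shControl were at 19.4 and 20.5. The others were chromosome 1, 121248000 to 121248999, at 5.11 (1.48 to 27.2), chromosome 18, 36407000 to 36407999, at 4.68 (1.77 to 15.6), and chromosome 18, 75662000 to 75662999, at 4.20 (1.71 to 12.4). In these 5 windows shSpt4 was called lower than shControl and shNelfE was not. They were picked for a high ratio of shNelfE to shSpt4, which favours this pair of calls.

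In the same 527 windows, the lowest ratio of shNelfE to shSpt4 was found at chromosome 17, 46092000 to 46092999, with 7 tags in shSpt5, 44 in shSpt4, 17 in shNelfE and 38 in shControl, and was 0.348 (0.186 to 0.622). Chromosome 17, 74200000 to 74200999, had 5, 25, 11 and 34 tags, and chromosome 6, 92210000 to 92210999, had 2, 33, 15 and 33. With chromosome 11, 72393000 to 72393999 (0.400, 0.151 to 0.968), and chromosome 15, 31475000 to 31475999 (0.410, 0.173 to 0.901), these are windows where shNelfE was called lower than shControl and shSpt4 was not. Picking windows for a low ratio of shNelfE to shSpt4 favours these calls. By these calls, windows that lost Pol II in shSpt5 included some that were lower in shSpt4 but not shNelfE, some that were lower in shNelfE but not shSpt4, some lower in both and some in neither. Windows picked in this way do not show how frequent each kind was.

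Within the shared flow cell, shSpt5 was below both other knockdowns. The median log2 ratio of shSpt5 to shSpt4 was -1.48 in the 548 windows and -0.44 in the others, and 362 windows (66.1%) were called lower, against 15.6% of all, and none higher, against 0.493%. For shSpt5 to shNelfE the medians were -1.67 and -0.31, and 443 windows (80.8%) were called lower, against 14.3% of all, and none higher, against 0.584%. The rule used shSpt5, so these values describe the choice. On tags of the strand not used in the choice, shSpt5 to shSpt4 was -0.98 and -0.97 and shSpt5 to shNelfE was -1.13 and -1.18.

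Pol II in these windows stood out less from its flanks than elsewhere, which is called broader below. A weak centre can give this as well as full flanks. The density within 250 bp of the highest point was divided by that 1 to 3 kb away on both sides. Densities were averaged over the 2 libraries that the rule did not use, shSpt4 and shNelfE. The highest point itself was found on all 4 libraries, shSpt5 and shControl included. The ratio is thus not fully separate from the choice of windows. The median of this central to flanking ratio was 8.39 in the 548 windows, with an interquartile range from 3.54 to 16.9, and 23.2 in the others, with an interquartile range from 10.4 to 42.4. The ratio was graded over the classes of the shSpt5 to shControl ratio: from the lowest class to the highest its median was 7.86, 8.51, 17.3, 26.8, 28.8 and 24.4. The class from 0.25 to 0.5, next to the limit of the rule, thus also lay below the classes above it. Both centre and flanks differed. In shNelfE the centre averaged 17.3 RPM per kb in the 548 windows and 27.9 in the others, and the flanks 2.69 and 2.05. In shSpt4 the centre averaged 15.4 and 31.3, and the flanks 2.45 and 2.14. In shControl, which the rule used, the mean centre density was 8.04 times the mean flank density in the 548 windows. It was 15.5 times in the others.

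Sorted by this ratio into 4 classes of equal size, the broadest 1927 windows held 290 of the 548, or 15% of the class. The next classes held 156, 74 and 28, or 8.10%, 3.84% and 1.45%. Over all windows the share was 7.11%, so windows that lost Pol II in shSpt5 made up more of the broad classes than of the sharp ones. Windows with few control tags are broader in any case, and the contrast was present within each class of control tags. These classes do not match the shSpt4 and shNelfE tags that give the ratio, so they cannot separate breadth from fewer such tags. At 30 to 39 control tags, the median log2 ratio of shSpt4 to shControl was -0.89 in the 548 windows and -0.38 in the others. For shNelfE to shControl it was -0.75 and -0.43. From 30 to 39 up to 100 or more control tags, the median ratio was 6.44, 9.25, 11.9 and 25.2 in the 548 windows and 15.2, 20.9, 30.7 and 36.9 in the others. Among windows with no other window of 30 or more control tags within 5 kb, the medians were 11.4 in 283 of the 548 windows and 28.1 in 3785 others.

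Breadth and the ratio of shNelfE to shSpt4 were linked in the other windows, where the median log2 ratio was -0.052 in the broadest class and -0.21 in the sharpest. In the 548 windows the classes from broad to sharp had 0.21, 0.23, 0.21 and 0.030, against -0.052, -0.087, -0.15 and -0.21 in the others. Within each class the 548 windows thus had the higher median, and the sharpest class rested on 28 of them. The largest window, on chromosome 4, was also the sharpest of those named, with a central to flanking ratio of 398, and the chromosome 9 window from 64973000 stood at 153.

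**Figure D4:**
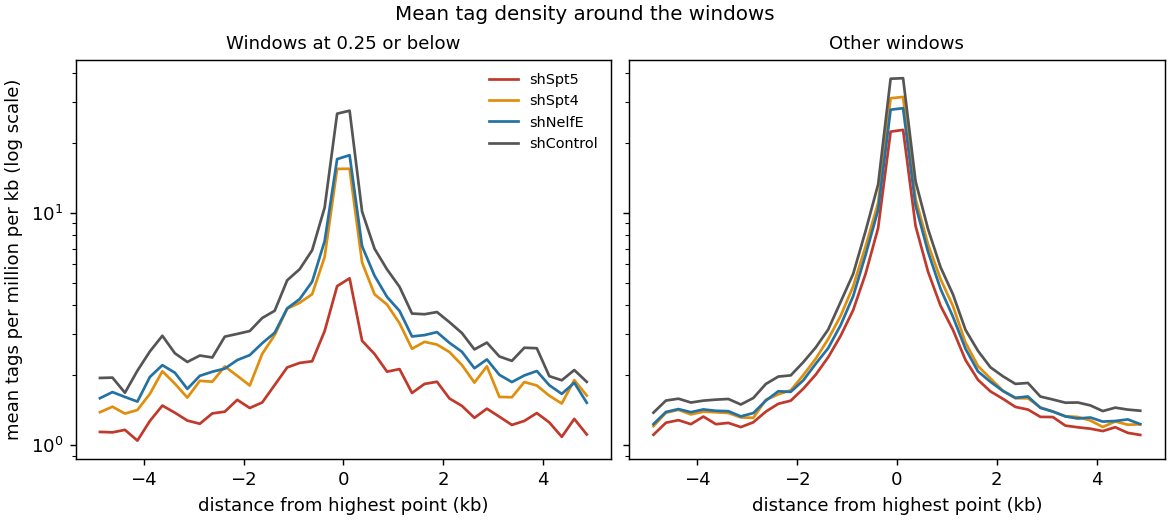
Mean RPM per kb (y axis, log scale) by distance from the highest point in each window (x axis, kb), for the 4 libraries in the 548 windows (left) and the other 7157 (right). In the 548 windows shSpt5 averages 5.02 within 250 bp, against 27.1 in shControl, and its line stays below the other libraries out to 5 kb. In the other windows shSpt5 averages 1.28 and shControl 1.61 at 2 to 5 kb.

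Flanks of the 548 windows also had a lower ratio of shSpt5 to shControl than flanks of the others. Within 250 bp of the highest point the ratio of shSpt5 to shControl was 0.186 (0.180 to 0.192) in the 548 windows and 0.596 (0.593 to 0.599) in the others. At 1 to 2 kb it was 0.460 (0.446 to 0.474) and 0.742 (0.736 to 0.748), and at 2 to 5 kb it was 0.536 (0.525 to 0.547) and 0.797 (0.792 to 0.802). Tags were summed window by window, so a tag near several windows counts more than once and the intervals of these sums can be too narrow. These flanks hold other windows of the 548 in some cases, so the bands were also taken at windows with no other window of 30 or more control tags within 5 kb, a choice made after seeing the data. In 283 such windows of the 548 and 3785 others, the ratio was 0.608 (0.572 to 0.645) and 0.958 (0.941 to 0.975) at 1 to 2 kb, and 0.712 (0.683 to 0.742) and 0.959 (0.946 to 0.971) at 2 to 5 kb. The flanks of the isolated windows were thus nearer to the control level, and those of the 548 stayed below those of the others. For shNelfE over shSpt4, the ratio was 1.12 (1.10 to 1.15) at the centre of the 548 windows, 1.10 (1.07 to 1.14) at 1 to 2 kb and 1.10 (1.08 to 1.13) at 2 to 5 kb. In the other windows it was 0.894 (0.889 to 0.898), 0.930 (0.922 to 0.938) and 1.01 (1.01 to 1.02). At isolated windows the ratio at 2 to 5 kb was 1.09 (1.04 to 1.14) and 1.05 (1.03 to 1.06), with overlapping intervals.

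Some of the windows lay together. The 548 windows formed 482 runs when windows within 5 kb were joined, of which 435 held 1 window and 47 held 2 or more. Windows of a run can share a gene or a stretch of Pol II and are not separate observations. Directly beside the 548 windows lay 130 others with 30 or more control tags, and their median shSpt5 to shControl ratio was 0.418, with 93 of them at 0.5 or less. Over all 7705 windows 39.5% were at 0.5 or less, each with an interval that excluded 1. Of the 548 windows, 36.9% touched another window with 30 or more control tags, against 41.5% of the others. The highest point lay within 100 bp of a window's edge in 26.8% of the 548 windows and in 26.4% of the others.

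The 2 longest runs held 5 windows each and had no single leading peak. In shControl the chromosome 19 run held several narrow rises. In steps of 250 bp, 1 had 35 tags between steps of 5 and 6, and another 33 between 11 and 7. On chromosome 19 the windows were contiguous from 7332000 to 7336999. In order along the chromosome they had 11, 3, 9, 15 and 10 tags in shSpt5. In shSpt4 they had 21, 8, 22, 28 and 23, in shNelfE 42, 24, 30, 47 and 29, and in shControl 64, 36, 46, 82 and 52. The shNelfE count was the highest of the knockdowns and the shSpt5 count the lowest in all 5. The central to flanking ratios ran from 1.09 to 3.84, which is the broad end of the range. The flanks at 1 to 3 kb fall largely on other windows of the run. Picking a contiguous run thus lowers this ratio by itself.

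On chromosome 8 the run started at 125776000, 125778000, 125779000, 125780000 and 125782000 and ended at 125782999. These windows held 14, 8, 14, 2 and 4 tags in shSpt5, 30, 23, 40, 32 and 13 in shSpt4, 28, 42, 34, 38 and 26 in shNelfE, and 58, 47, 60, 56 and 31 in shControl. Here the higher of shSpt4 and shNelfE varied by window, and every interval of shNelfE to shSpt4 included 1. On chromosome 19 that interval excluded 1 only at the windows from 7332000 and 7333000. None of the 5 was called lower than shControl in either of them, whereas on chromosome 19 shSpt4 was called lower at 3 of 5 windows and shNelfE at none.

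The run on chromosome 13 held 4 windows, starting at 44913000, 44914000, 44915000 and 44917000, with 3, 5, 5 and 3 tags in shSpt5. In shSpt4 they held 52, 41, 13 and 26 tags, in shNelfE 101, 59, 25 and 34, and in shControl 226, 134, 38 and 44. The first and second, with central to flanking ratios of 14.5 and 13.5, had the lowest shSpt5 ratios of the 28 windows with 100 or more control tags. The windows from 44907000 and from 44925000, which lie on either side, were also among the 548, with 1 and 4 tags in shSpt5 and 31 and 31 in shControl.

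**Figure D5:**
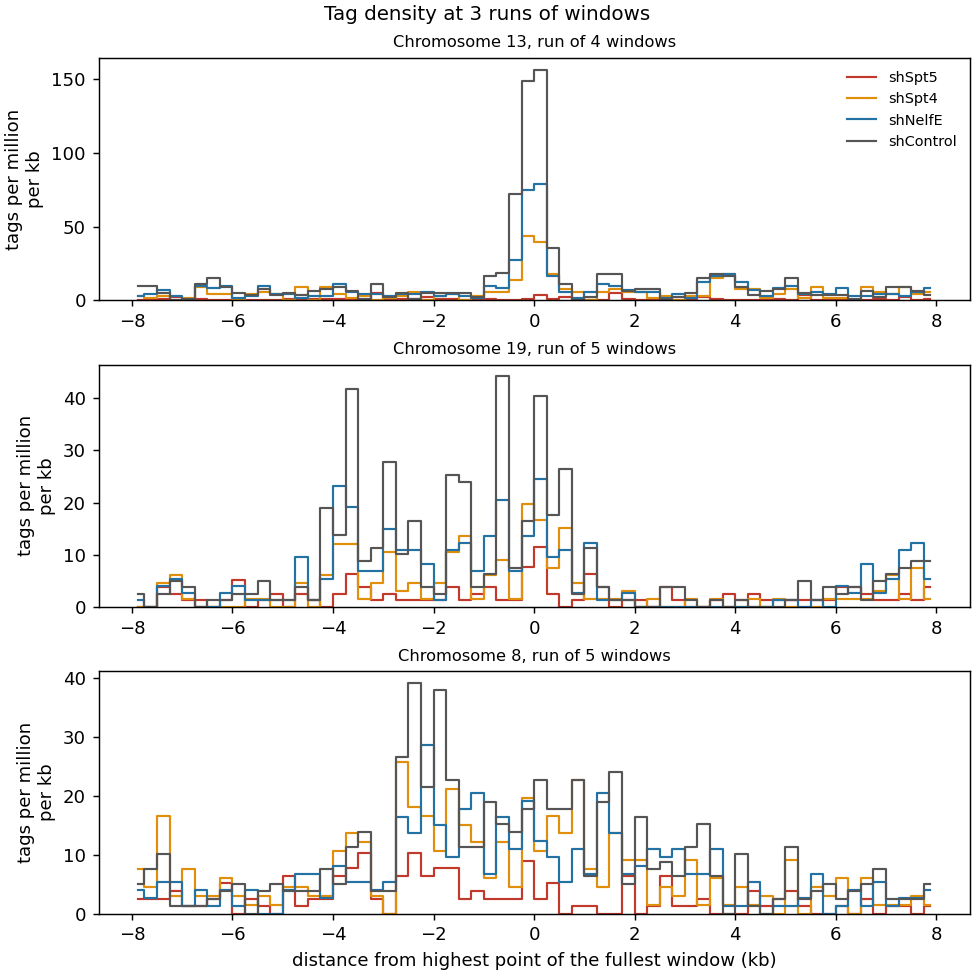
RPM per kb in steps of 250 bp (y axis) by distance in kb from the highest point of the fullest window (x axis) at the runs on chromosomes 13, 19 and 8, for the 4 libraries. The chromosome 13 run is led by a peak, and the other 2 have several lower rises and no single leading peak. In all 3 the shSpt5 line lies near the bottom, with 3, 5, 5 and 3 tags in the windows on chromosome 13.

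The windows were spread over all 19 chromosomes. Their share among windows with 30 or more control tags ran from 5.22% on chromosome 12 to 10% on chromosome 16, where 23 of 230 were among the 548, and chromosome 7 had the most, with 49. Plus-strand tags made up 49.8% of the tags in shSpt5, 50.3% in shSpt4, 50.7% in shNelfE and 50.0% in shControl, so neither strand was missing in any library. Repeated positions made up 16.5% of reads in the 548 windows in shSpt5, 9.76% in shSpt4, 12.1% in shNelfE and 12.8% in shControl.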

How the data were processed

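The authors aligned reads with Bowtie to mm8 (-n 2, -l 36, -e 70, -k 2, -m 2), per the file headers and, for tool and build, per the submitters' processing notes. They deposited 1 signed position per read, the sign giving the strand, in 2 read categories, with no normalization. No version of Bowtie is given in the sources used here. The lowest deposited position was 1, and positions were taken as 1-based. From the first category, 1 tag per signed position was kept, tags were moved by 41 bp, to higher positions on the plus strand and lower ones on the minus strand, and tags were counted in 1 kb windows and scaled to 1000000 kept tags. That left 3116313 tags in shSpt5, 2646944 in shSpt4, 2938052 in shNelfE and 3170090 in shControl. Log2 ratios used a pseudocount of 0.5 tags. With 1 library per group no p-value was computed, and windows are not replicates. The highest point of a window was found on the 4 libraries weighted equally, in steps over 200 bp. Named windows were the 10 with most control tags, the 10 lowest in shSpt5, the 5 highest and 5 lowest by shNelfE to shSpt4 and by the mean of both ratios to shControl, 3 at each limit and the longest runs; the other windows of the chromosome 13 run and those around it were named after their values were seen. The windows and lists were chosen with earlier results of these data known. The ratio and interval code was tested on simulated data. Python 3.11.15, NumPy 2.4.6, SciPy 1.17.1, pandas 2.3.3 and matplotlib 3.10.9 were used. No whole cell extract library was used here, so levels include background.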

Additional observations from a re-analysis of the deposited data

How the results depend on the processing

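No log2 ratio changed its sign under any of the alternatives run. The other results are positive by construction. On the tags that chose the windows, the rule itself keeps shSpt5 to shControl negative and favours low ratios of shSpt5 to shSpt4 and shNelfE. Of 89 values, 50 stayed within the 95% order-statistic or counting interval of the value with the main settings (for the number of windows, within 1.5 times). Values below are median log2 ratios unless named otherwise. With every tag kept, shSpt4 to shControl was -0.95 and shNelfE to shControl -0.75. The flank to centre density, summed over the chosen windows in shSpt4 and shNelfE, was then 14.6%, against 15.7% with the main settings. The control density within 5 kb of the chosen windows was 3.08 RPM per kb, against 3.32. Both densities left their interval under all 4 alternatives run for them. These alternatives were not run for the other windows, so they do not test the contrast with them. Unmoved tags gave 14.2% and 3.18, and windows started 500 bp later 13.8% and 3.18. Scaling by tags outside the windows gave -0.75 for shNelfE to shControl. Scaling by the median ratio left 112 windows, because the median of all windows was itself at log2 -0.83 in shSpt5; there shSpt4 to shControl was -0.53, shNelfE to shControl -0.15, shNelfE to shSpt4 0.37, shSpt5 to shSpt4 -1.74 and shSpt5 to shNelfE -2.21. A minimum of 50 control tags left 188 windows, with 10.9% and 4.17. A ratio limit of 0.2 left 305 windows, with -2.61 for shSpt5 to shControl, -1.74 to shSpt4 and -1.91 to shNelfE. On the strand not used in the choice (minus, then plus), shSpt5 to shControl was -1.70 and -1.74, shSpt4 to shControl -0.68 and -0.70, shNelfE to shControl -0.56 and -0.51, shSpt5 to shSpt4 -0.98 and -0.97, and shSpt5 to shNelfE -1.13 and -1.18. On the minus strand shNelfE to shSpt4 was 0.091. Ratios of summed tags were -2.46 for shSpt5 to shControl, -0.64 for shNelfE to shControl, -1.63 for shSpt5 to shSpt4 and -1.83 for shSpt5 to shNelfE. Taking 1 window per run, chosen after seeing the data, gave 0.20 for shNelfE to shSpt4. Windows with no other within 5 kb, also chosen after seeing the data, had shSpt5 to shControl ratios of 0.608 at 1 to 2 kb and 0.712 at 2 to 5 kb, against 0.460 and 0.536 as reported. No paired analysis was possible because each group held 1 library. For the other settings the cause of the move was not tested. A median of 8 shSpt5 tags limits the precision of single ratios.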

Other observations

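Reads of the second category, which the choice of windows did not use, were present in 43 of the 548 windows in shSpt5, 61 in shSpt4, 62 in shNelfE and 77 in shControl. Scaled to kept first-category tags, their ratio to shControl was 0.332 (0.273 to 0.402) in shSpt5, with 142 tags against 435. In shSpt4 the ratio was 0.677 (0.577 to 0.794), with 246 tags, and in shNelfE 0.695 (0.596 to 0.809), with 280 tags. In the other windows these ratios were 0.758 (0.740 to 0.776), 0.938 (0.917 to 0.960) and 0.861 (0.842 to 0.881). The headers do not state what sets this category apart, and its reads come from the same libraries.

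Chromosome X lies outside the rule and held 148 windows with 30 or more control tags. There, 9 windows (6.08%) had a shSpt5 to shControl ratio of 0.25 or less. The median log2 ratio of shNelfE to shSpt4 was 0.21 in these 9 windows and -0.23 in the rest.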
